A study of Rattus norvegicus with 4 samples.

Results

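The protein genes of the cytosolic ribosome and the genes of the translation factors were examined in fat of obese and control rats. Members were chosen by symbol and then kept by a signal threshold. A gene was taken when its single symbol in the platform's annotation began with Rpl or Rps and a digit, was Rpsa or Rplp0, Rplp1 or Rplp2, or began with Eif or Eef, and the S6 kinase genes were left out. On the array 100 genes met this rule, 30 of the large subunit, 14 of the small subunit and 56 translation factors. Each gene was represented by its brightest probe set, and 99 of the 100 exceeded a signal of 20.8 on at least 2 of 4 arrays, out of 9012 genes tested in all. These were 29 large subunit genes, 14 small subunit genes and 56 factors.

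Total RNA of visceral adipose tissue was hybridised to 4 single-colour arrays, 2 of obese and 2 of control animals. All 4 samples came from male Wistar rats aged 130 days, with no agent, diet or allele named in the labels, which also do not say how obesity arose. Nor do they state whether each array holds RNA of a single animal or of several. The p-values below therefore reflect the scatter among these 4 samples, part or all of which may be technical. Median signals over all probe sets were 82.2 and 75 on the obese arrays and 83.1 and 82.8 on the control arrays, and the 7 adipocyte markers on the array summed to signals of 12098.3 and 14511.3 in obese tissue and 12328.5 and 11964.1 in control tissue, with none at or under 20.8 on all arrays.

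The cytosolic ribosome is a large and a small subunit, each built of ribosomal RNA and a set of proteins made in nearly equal numbers. Initiation factors bring the initiator tRNA and the mRNA cap to the small subunit, and elongation factors deliver aminoacyl-tRNAs and move the ribosome along the mRNA. In adipose tissue, as elsewhere, insulin and amino acids act through the kinase mTOR on the translation of mRNAs that begin with a C and a run of pyrimidines, the 5′ terminal oligopyrimidine tract, which many ribosomal protein and elongation factor mRNAs carry. That control acts on translation, and arrays measure mRNA.

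Start site sequences are shown here because this tract is the feature for which ribosomal protein genes are best known. Each line gives 30 bases centred on the annotated start in RefSeq, rat assembly GRCr8, written 5′ to 3′ on the gene's strand, with the first transcribed base at position 16 of the line. Capitals mark a C followed by at least 4 pyrimidines that began within 5 bases of the annotated start, a search rule set after the array values were known. The windows lie at chr8:129163605-129163634, plus strand, for Rpl14, chr12:46718376-46718405, minus strand, for Rplp0, chr7:10068101-10068130, minus strand, for Rps15, chr2:23814502-23814531, plus strand, for Rps23, chr5:106420526-106420555, minus strand, for Rps6, chr8:88225055-88225084, minus strand, for Eef1a1, chr1:172369047-172369076, plus strand, for Eif3f, and chr12:19334754-19334783, minus strand, for Eif3b.
Rpl14: gggcgggccctctccCTTCTCgctgagcgc
Rplp0: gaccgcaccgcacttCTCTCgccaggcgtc
Rps15: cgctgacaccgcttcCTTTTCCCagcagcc
Rps23: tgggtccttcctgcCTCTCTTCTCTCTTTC
Rps6: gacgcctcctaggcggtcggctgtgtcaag
Eef1a1: tcgccttggacgttCTTTTTCgcaacgggt
Eif3f: tcacgcccttccgttctagCCTCTCTCTTT
Eif3b: cggaagcagggcggccgagccgggtgagga
Rpl14, Rplp0, Rps15, Rps23, Eef1a1 and Eif3f held such a tract within 5 bases of their annotated start, and Rps6 and Eif3b did not. The tract of Eif3f began 4 bases after the start. An annotated start can lie some bases from the one a tissue uses, so the absence of the letters says nothing beyond this window.

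Signals of 36 of the 43 tested ribosomal protein genes were lower in obese than in control tissue, with a median log2 difference of -0.11 over the 43. Of all tested probe sets 57.5% were lower, and their median was -0.04. None of the 99 members passed limma's test over all 12929 tested probe sets (smallest adjusted p = 0.522). Differences were small on the brightest probe set of each gene. The obese signal lay within 1.2-fold of the control signal for 83 of 99 members, namely 28 of 29 large subunit genes, 12 of 14 small subunit genes and 43 of 56 factors, and 0 of 99 differed 1.5-fold or more. A further probe set of Eif4b, slightly less bright and not counted here, differed by -0.63, which is more than 1.5-fold. Of all tested probe sets, 1.83% were at least 1.5-fold higher and 3.47% at least 1.5-fold lower in obese tissue without overlap between the groups. The adjusted threshold of 0.05 was met by 0.0% of probe sets over the whole array, and before adjustment limma's p was under 0.05 for 8.3% of them, 1073 in number. Among the members 3 of 99 were under it before adjustment, the factors Eif3f, Eif2s2 and Eif4e3.

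Because no gene passed, members were also described by whether both obese arrays lay on the same side of both control arrays. Such a gene is called separated here. Of the whole array, 24.4% of tested probe sets were separated lower in obese tissue and 15.6% separated higher. Among the large subunit genes this held for 15 of 29 lower (51.7%) and 1 of 29 higher (3.45%). The 15 include Rpl30, whose obese signals were both under 20.8, so it was kept through its control arrays only. When all 4 arrays had to exceed 20.8, 14 large subunit genes were separated lower, beside 24.5% of all probe sets. The small subunit had 7 of 14 lower (50%) and 0 higher. Translation factors had 18 of 56 lower (32.1%) and 9 of 56 higher (16.1%). The share lower was thus about 2 times that of all probe sets in both subunits, and closer to it among the factors. The members share the same 4 arrays and are not independent of each other.

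The large subunit median was -0.11 with a range of -0.35 to 0.09, and the small subunit median was -0.09 with a range of -0.29 to 0.30. The value of -0.35 belongs to Rpl30, and its size depends on the floor. Factors had a median of -0.04 and a range of -0.46 to 0.51, and the median of all tested probe sets was also -0.04. Each array's median distance from the control mean was -0.06 and -0.16 for the large subunit on obese replicates 1 and 2, -0.06 and -0.10 for the small subunit, -0.07 and -0.06 for the factors, and -0.01 and -0.08 for all tested probe sets. Obese replicate 2 was the lowest of the 4 arrays for 21 of 29 large subunit genes and 7 of 14 small subunit genes, and 23 of 56 factors. Control replicate 2 was the highest for 14, 7 and 19. Without obese replicate 2 the large subunit median was -0.06 and the small subunit median -0.06, and without obese replicate 1 they were -0.16 and -0.10, so the size of the difference depended on that array and its direction did not.

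**Figure D1:**
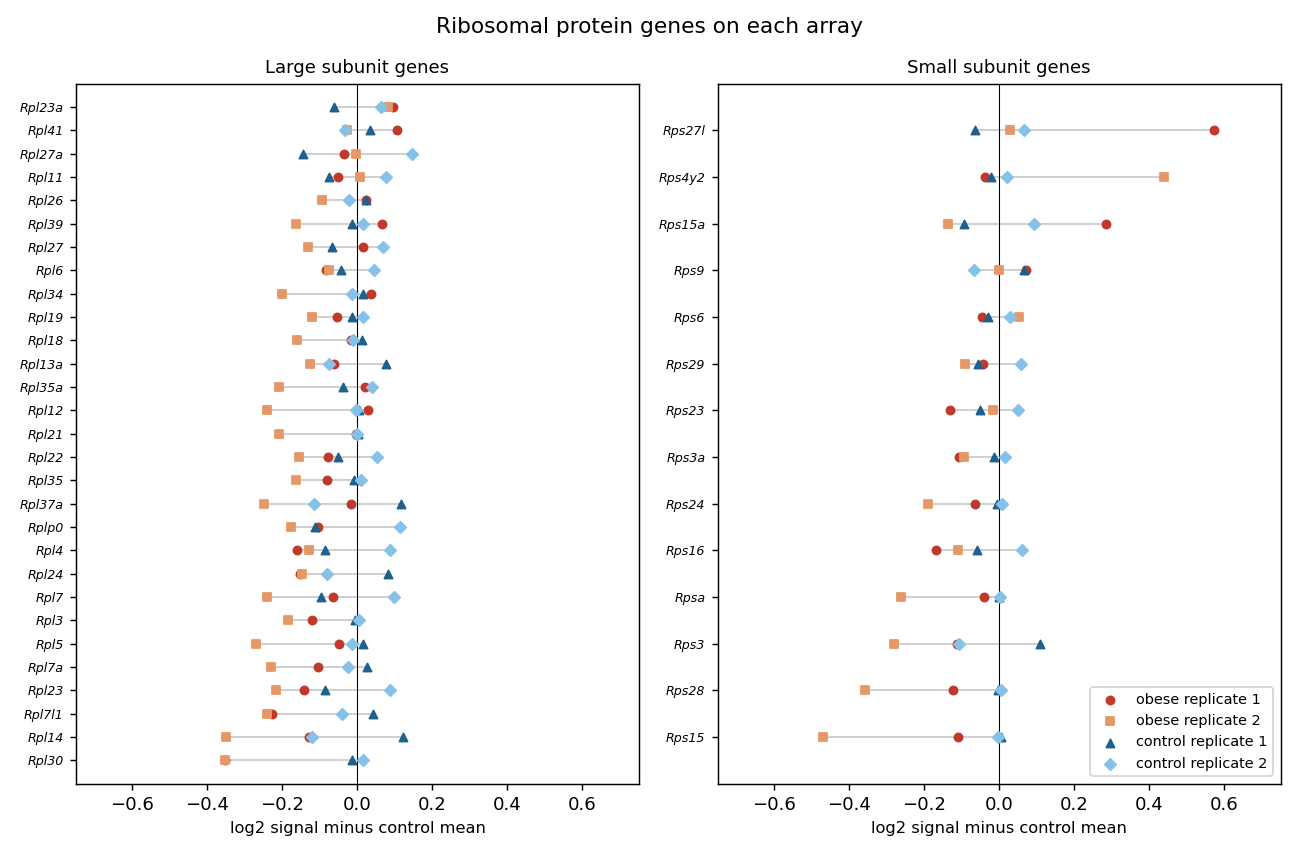
Log2 signal minus the mean of the 2 control arrays (x axis) for the 29 large subunit genes (left) and the 14 small subunit genes (right), 1 row per gene in order of the obese minus control difference. Points are single arrays, and the point of obese replicate 2 is the leftmost in 21 large subunit rows and 7 small subunit rows.

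Centring each array on its own median brought the subunit medians closer to 0. The median of all tested probe sets then moved to 0.03, the large subunit median to -0.03 and the small subunit median to -0.01. Both obese arrays lay below both control arrays for 6 large subunit and 4 small subunit genes under that scaling, and above for 3 and 2, against 16.9% lower and 21.7% higher of all probe sets. Under quantile and cyclic loess normalization the subunit medians lay between -0.13 and -0.18. Quantile normalization left 8 of 29 large subunit and 6 of 14 small subunit genes separated lower, beside 20.6% of all probe sets, so the large subunit's share came much nearer to that of the array than on the deposited scale. Cyclic loess left 11 and 8, beside 20.3%. The median difference of each subunit was below that of all probe sets under each of these 3 scalings and on the deposited scale. The median standard error of a single member was 0.15 on the deposited scale.

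Rpl14, a large subunit protein, had signals of 1304.2 and 1116.9 in obese tissue and 1550.6 and 1309.7 in control tissue. The log2 difference was -0.24 ± 0.16 (SE, as for all errors given with a log2 difference, adjusted p = 0.734). Its groups did not overlap, by the narrow gap between obese replicate 1 and control replicate 2. Rpl7l1, a paralog of Rpl7, had signals of 248.9 and 246.4 in obese tissue and 299.7 and 283.3 in control tissue (-0.23 ± 0.12, adjusted p = 0.676), with replicates close together in both groups. Rpl23 had signals of 1936.3 and 1840.0 in obese and 2015.2 and 2270.7 in control tissue (-0.18 ± 0.15, adjusted p = 0.780), and both obese arrays were below both controls. Rpl7a, another large subunit protein, had signals of 2531.1 and 2322.3 in obese and 2772.1 and 2678.6 in control tissue (-0.17 ± 0.15, adjusted p = 0.798), also without overlap.

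Rplp0, the base of the stalk that recruits elongation factors, is often used as a reference gene in quantitative PCR. Its signals were 1592.4 and 1512.4 in obese and 1582.2 and 1851.2 in control tissue (-0.14 ± 0.15, adjusted p = 0.834). The groups overlapped, with control replicate 2 standing above the other 3 arrays. At the upper end of the large subunit, Rpl23a had signals of 1120.8 and 1109.6 in obese and 1004.6 and 1096.2 in control tissue (0.09 ± 0.13, adjusted p = 0.886), the 1 large subunit gene whose obese arrays both lay above both controls on the deposited scale. Rpl41, the smallest ribosomal protein, had signals of 2001.1 and 1824.1 in obese and 1902.4 and 1816.2 in control tissue (0.04). Rpl11, which binds Mdm2 when free of the ribosome, had signals of 1665.9 and 1737.4 in obese and 1639.6 and 1821.4 in control tissue (-0.02). Both of these genes overlapped between groups. Rpl27a, among the brightest members, overlapped too, at 2512.0 and 2566.9 in obese and 2329.6 and 2845.8 in control tissue (-0.02).

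Rpl30 was measured at the floor. Its probe set read 20.6 and 20.7 in obese and 26.3 and 26.8 in control tissue, at least 1.28-fold lower, and its dim signal makes it no marker of ribosome content on this array. It is counted in the 36 ribosomal protein genes lower and in the 15 large subunit genes separated lower. Eef1akmt4, a lysine methyltransferase of the elongation factor eEF1A, was the other member near the threshold, with signals of 23.8 and 7.0 in obese and 24.9 and 5.6 in control tissue. Rpl3l, a muscle paralog of Rpl3, was the 1 member left untested, with signals of 11.3 and 3.0 in obese and 19.6 and 4.7 in control tissue, all under the floor. Probe sets that the annotation pairs with several symbols stay unnamed here. Of those that list a large subunit gene, 15 of 19 were lower in obese tissue, with a median of -0.06 and 7 separated lower, and of those that list a small subunit gene 14 of 14 were lower, with a median of -0.12 and 9 separated lower. Neither set held a probe set separated higher. Of all tested probe sets 57.5% were lower, 24.4% separated lower and 15.6% separated higher, with a median of -0.04.

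Among small subunit genes the largest decreases in obese tissue were at Rps15 and Rps28. Rps15, a protein of the decoding region, had signals of 1178.1 and 918.1 in obese and 1276.0 and 1269.1 in control tissue (-0.29 ± 0.16, adjusted p = 0.687). The groups did not overlap, but the difference was -0.11 without obese replicate 2 and -0.47 without obese replicate 1. Rps28 had signals of 1570.2 and 1334.3 in obese and 1705.8 and 1715.1 in control tissue (-0.24 ± 0.15, adjusted p = 0.711), and here too obese replicate 2 lay lowest. Rps3, at the mRNA entry channel, had signals of 1453.2 and 1294.2 in obese and 1694.3 and 1458.4 in control tissue (-0.20 ± 0.15, adjusted p = 0.767). Obese replicate 1 and control replicate 2 were nearly level for this gene. Rpsa, known also as the laminin receptor, had signals of 1934.2 and 1657.1 in obese and 1985.7 and 1990.7 in control tissue (-0.15 ± 0.15, adjusted p = 0.824), and its 2 other probe sets differed by -0.28 and -0.09.

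Other small subunit genes lay level or slightly higher. Rps6, the substrate of S6 kinase, had signals of 2619.2 and 2807.2 in obese and 2651.0 and 2761.4 in control tissue (0.0032 ± 0.15). Rps15a had signals of 1776.1 and 1326.0 in obese and 1367.3 and 1555.7 in control tissue (0.07 ± 0.19), so the obese arrays lay on either side of the controls. Rps23, at the decoding centre, had signals of 2677.0 and 2902.0 in obese and 2833.6 and 3039.4 in control tissue (-0.07), with overlap. Rps9 overlapped as well, at 1695.8 and 1612.4 in obese and 1689.0 and 1540.1 in control tissue (0.04). The top of the range was held by dim paralogs. Rps27l, a paralog of Rps27 known as a p53 target, had signals of 76.5 and 52.4 in obese and 49.1 and 53.8 in control tissue (0.30 ± 0.24), a difference of 0.03 without obese replicate 1. Rps4y2 had signals of 40.7 and 56.7 in obese and 41.2 and 42.4 in control tissue (0.20 ± 0.23), and the groups overlapped.

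The scaffold protein of the small subunit, Rack1, falls outside the symbol rule and had signals of 1334.4 and 1327.0 in obese and 1568.6 and 1570.3 in control tissue. Its log2 difference was -0.24 ± 0.13 (adjusted p = 0.678), with replicates nearly identical in both groups.

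The subunits were also set against each other and against other genes within each array. The median log2 signal of the large subunit minus that of the small subunit was -0.14 and -0.10 on the obese arrays and -0.16 and -0.04 on the control arrays, so the 2 groups overlapped. Large subunit minus factors was 2.51 and 2.32 in obese and 2.42 and 2.61 in control tissue, again with overlap. The median of both subunits minus that of all tested probe sets was 3.88 and 3.82 in obese and 3.87 and 3.95 in control tissue, and these overlapped, with obese replicate 1 above control replicate 1. Ribosomal genes of both subunits minus the mitochondrial ribosome was 3.28 and 3.22 in obese and 3.47 and 3.36 in control tissue, and these groups did not overlap. No test of these values was made, because the smallest two-sided p of an exact permutation of 2 arrays against 2 is 0.333.

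Most ribosomal probe sets were bright, and 37 of 43 had a mean signal of 1000 or more. Their median log2 difference was -0.11, with 1 separated higher and 19 lower. The 360 probe sets of other genes in that range had a median of 0.10, with 257 higher in obese tissue and 110 separated higher against 43 lower. That median of the other bright genes came from obese replicate 2, whose median distance from the control mean was 0.22, while it was -0.01 on obese replicate 1. The 40 factors with a mean signal of 100 to 600 had a median of -0.02, beside -0.03 for 6087 other probe sets of that range.

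**Figure D2:**
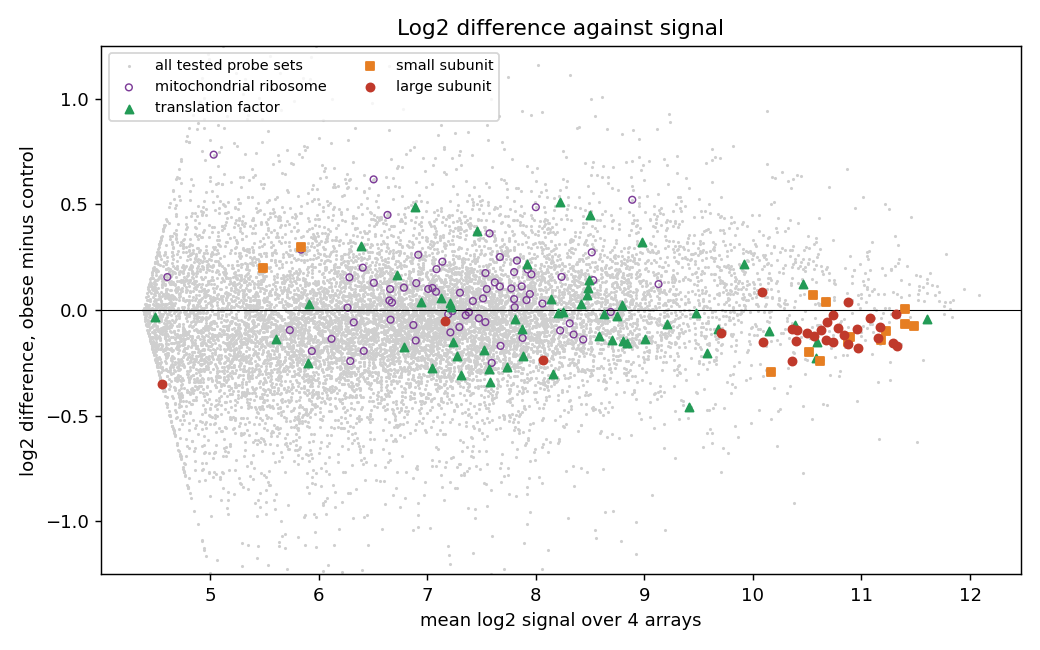
Log2 difference, obese minus control (y axis), against the mean log2 signal over 4 arrays (x axis) for all tested probe sets and for the large subunit, the small subunit, the factors and the mitochondrial ribosome, with 88 probe sets beyond the plotted range. Points of the subunits gather at the bright end, mostly a little under the line at 0, while the factors spread on both sides of it.

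Among the factors, 35 of 56 were lower and 21 higher in obese tissue. All 6 elongation factor genes were lower, by a median of -0.14, and 3 were separated lower, beside 57.5% lower and 24.4% separated lower of all tested probe sets. Eef1a1, Eef1a2 and Eef1b2 were above 0 under some alternatives, at most 0.23, 0.12 and 0.0085. Eef2, the GTPase that moves the ribosome along the mRNA, had signals of 1444.0 and 1385.1 in obese and 1689.8 and 1621.8 in control tissue (-0.23 ± 0.13, adjusted p = 0.694), and every alternative that left out an array gave -0.26 to -0.20. Eef1g, a subunit of the complex that recharges eEF1A with GTP, had signals of 1440.4 and 1486.1 in obese and 1518.1 and 1742.3 in control tissue (-0.15 ± 0.14, adjusted p = 0.814), without overlap. Eef1d, another subunit of that complex, had signals of 503.4 and 474.9 in obese and 529.1 and 546.0 in control tissue (-0.14), also without overlap, and Eef1b2 differed by -0.07.

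Eef1a1, which carries aminoacyl-tRNA to the ribosome, had signals of 2542.2 and 3702.1 in obese and 2980.8 and 3346.7 in control tissue (-0.04 ± 0.22). Its obese arrays lay outside the control range on opposite sides. The isoform Eef1a2 was dim, at 43.5 and 49.9 in obese and 61.3 and 42.9 in control tissue (-0.14), with overlap. Eef2k, the kinase that inhibits eEF2, had signals of 199.2 and 144.1 in obese and 239.2 and 192.9 in control tissue (-0.34 ± 0.21, adjusted p = 0.713). The groups overlapped, since obese replicate 1 lay above control replicate 2, and the other tested probe sets of Eef2k differed by -0.53 and -0.11. The methyltransferase gene Eef1akmt1 was separated lower (-0.25).

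Delivery of the initiator tRNA had 3 of 4 genes separated higher, beside 15.6% of all tested probe sets. The GTPase eIF2 has 3 subunits, and the beta subunit gene Eif2s2 had signals of 545.7 and 582.3 in obese and 460.8 and 440.6 in control tissue (0.32 ± 0.12, adjusted p = 0.574). The gamma subunit gene Eif2s3 had signals of 266.9 and 254.3 in obese and 231.9 and 216.9 in control tissue (0.22 ± 0.13, adjusted p = 0.704). Obese arrays lay above controls in both. The alpha subunit gene Eif2s1, whose product is the target of the stress kinases, was level at 295.0 and 312.1 in obese and 306.1 and 304.5 in control tissue (-0.01). Eif2d, a separate factor able to deliver initiator tRNA, had signals of 102.4 and 121.9 in obese and 98 and 101.1 in control tissue (0.17), higher without overlap.

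Genes of eIF2B, the exchange factor that reloads eIF2 with GTP, were level or lower. Eif2b2 had signals of 163.7 and 125.4 in obese and 173.3 and 180.8 in control tissue (-0.31 ± 0.18, adjusted p = 0.696), and its difference was -0.11 without obese replicate 2. Eif2b4 (-0.22) and Eif2b5 (-0.17) were also separated lower, while Eif2b1 (0.02) and Eif2b3 (0.06) overlapped. Of the eIF2 kinases, Eif2ak3, the endoplasmic reticulum stress kinase PERK, had signals of 123.3 and 116.9 in obese and 160.0 and 131.7 in control tissue (-0.27 ± 0.17, adjusted p = 0.714). The haem-regulated kinase Eif2ak1 differed by -0.22 and was separated lower, with a further probe set at -0.38. The double-stranded RNA kinase Eif2ak2 had signals of 92.5 and 93.9 in obese and 83.5 and 68.1 in control tissue (0.31 ± 0.19, adjusted p = 0.715), separated higher. Eif2ak4, the amino acid sensor GCN2, overlapped (0.03).

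The scaffold eIF3 held both ends of the factors' range. Eif3b had signals of 270.0 and 473.1 in obese and 260.9 and 240.4 in control tissue (0.51 ± 0.27, adjusted p = 0.671). Obese replicate 1 was barely above the controls, and the difference was 0.11 without obese replicate 2. Eif3f had signals of 675.2 and 497.6 in obese and 777.1 and 818.4 in control tissue (-0.46 ± 0.18, adjusted p = 0.581), and -0.24 without obese replicate 2. Across the 11 genes of eIF3, 4 were higher and 7 lower, with a median of -0.02. Of these, 1 was separated higher (9.09%) and 3 lower (27.3%), near the 15.6% and 24.4% of all tested probe sets. Eif3m (-0.20) and Eif3d (-0.12) were the other separated lower genes.

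Cap binding through eIF4 was mixed. Eif4e3, a cap-binding paralog of eIF4E, had signals of 135.1 and 146.0 in obese and 98.9 and 101.2 in control tissue (0.49 ± 0.15, adjusted p = 0.522). Its replicates were close in both groups, and leaving out any 1 array gave 0.43 to 0.55. The cap-binding protein Eif4e itself was level at 439.3 and 414.8 in obese and 408.9 and 462.6 in control tissue (-0.03). Eif4ebp1, the mTOR-regulated inhibitor of eIF4E, had signals of 343.9 and 520.5 in obese and 317.9 and 302.4 in control tissue (0.45 ± 0.21, adjusted p = 0.642), and the difference was 0.15 without obese replicate 2. The related inhibitor Eif4ebp2 was separated lower (-0.16), and Eif4ebp3 (0.04) and the eIF4E transporter Eif4enif1 (-0.19) overlapped.

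Eif4b, a cofactor of the helicase eIF4A, had signals of 267.0 and 248.3 in obese and 356.6 and 283.1 in control tissue (-0.30 ± 0.16, adjusted p = 0.671), and its further probe set differed by -0.63. The scaffold gene Eif4g3 (-0.27) was separated lower, while Eif4g1 (0.14) and Eif4g2 (-0.10) overlapped. Of the helicases, Eif4a2 was separated higher (0.12) and Eif4a1 overlapped (-0.09), as did Eif4h (-0.01) and Eif4e2 (-0.09). Eif1a, which helps the small subunit scan for the start codon, had signals of 161.9 and 247.9 in obese and 143.8 and 166.4 in control tissue (0.37 ± 0.23, adjusted p = 0.717). Obese replicate 1 lay between the controls, and the difference was 0.07 without obese replicate 2.

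**Figure D3:**
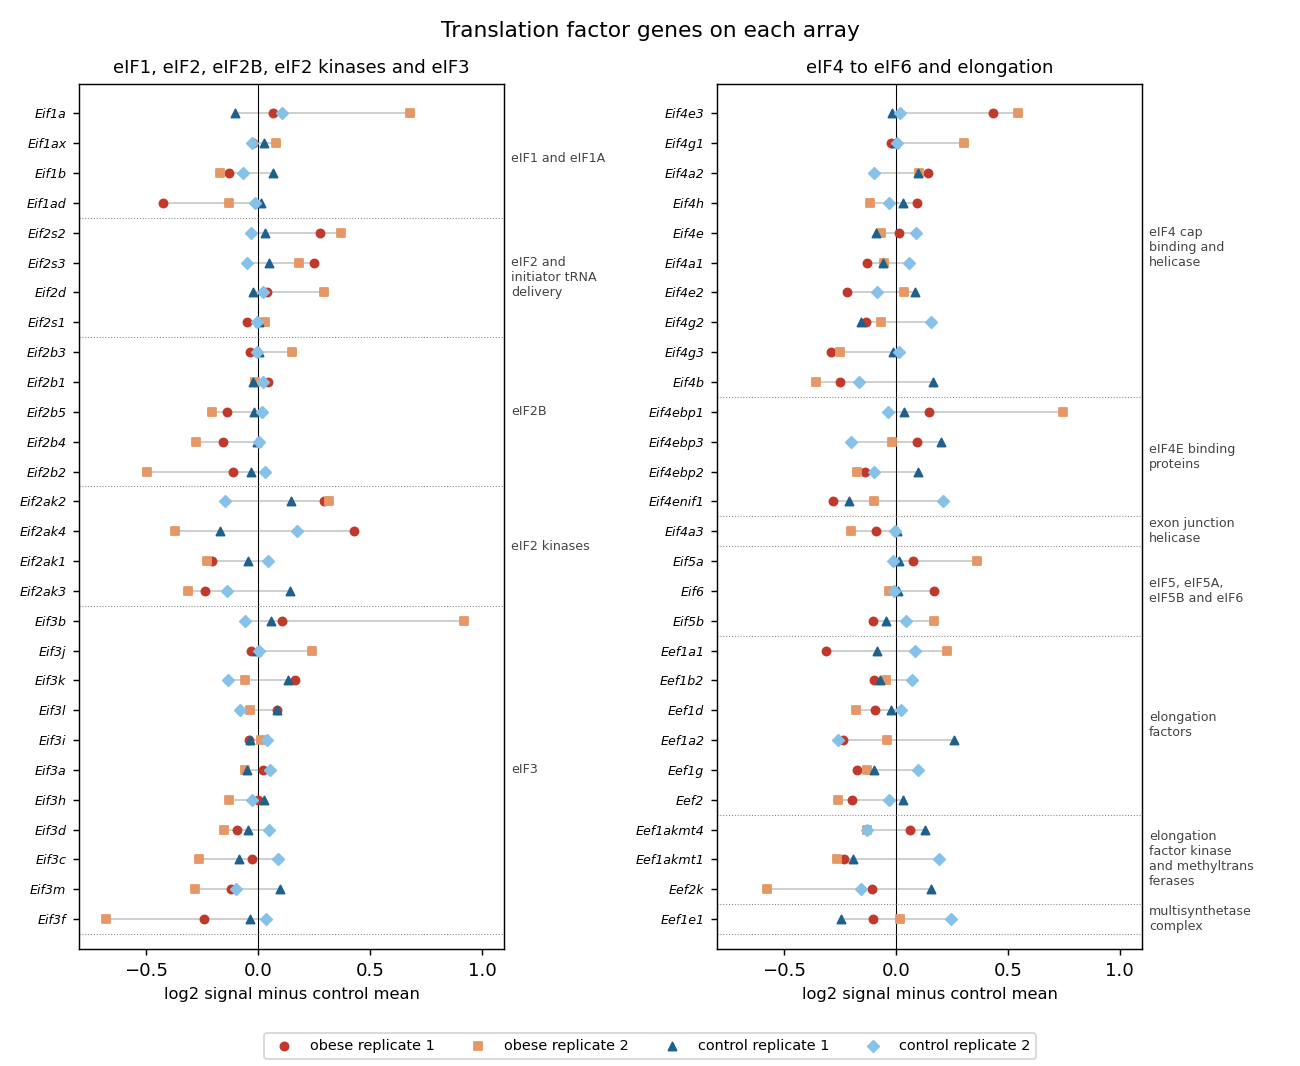
Log2 signal minus the mean of the 2 control arrays (x axis) for the 56 translation factor genes, 1 row per gene, grouped by role and ordered within each role by the obese minus control difference. Points are single arrays, and for Eif3b, Eif4ebp1, Eif1a and Eif3f the point of obese replicate 2 stands far from the other 3, whereas both obese points of Eif4e3 and Eif2s2 lie together right of the controls.

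Promoter sequences were available for 87 of the 99 members, 24 large subunit, 12 small subunit and 51 factor genes. The pyrimidine tract defined above was found at 12 of 24 large subunit starts (50%), 6 of 12 small subunit starts (50%) and 12 of 51 factor starts (23.5%), beside 17.0% of all 33469 promoters. Ribosomal genes with a tract had a median log2 difference of -0.11, with 17 of 18 lower, and those without it had a median of -0.10, with 14 of 18 lower. Factors with a tract had a median of -0.11, with 9 of 12 lower, and those without had -0.02, with 23 of 39 lower. Of all tested probe sets 57.5% were lower. No difference between genes with and without a tract was tested. In the 300 bases around the start, on both strands, the ETS family motif CCGGAAG was present at 33.3% of large subunit, 8.33% of small subunit and 33.3% of factor promoters, beside 8.75% of all. The GC box GGGCGG was present at 58.3%, 66.7% and 70.6%, beside 33.1% of all, and the TATA box letters TATAAA at 12.5%, 25% and 5.88%, beside 14.2%.

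Neighbouring pathways were read from lists, and no gene of any list passed limma's test. Of 71 mitochondrial ribosome genes, which make the separate ribosome of the organelle, 46 were higher in obese tissue, 25 were separated higher (35.2%) and 5 lower (7.04%), beside 15.6% and 24.4% of all tested probe sets, with a median of 0.08. Under median centring 57 were higher, 29 separated higher and 1 lower, with a median of 0.16. Under that scaling 21.7% of all tested probe sets were separated higher and 16.9% lower, with a median of 0.03. On the deposited scale the mitochondrial median was between 0.05 and 0.09 with any 1 array left out. Its distance from the control mean was 0.05 on obese replicate 1 and 0.09 on obese replicate 2. Mrpl14 had signals of 39.2 and 45.6 in obese and 16.2 and 31.0 in control tissue (0.74 ± 0.26, adjusted p = 0.557), though 1 control array was at or under the floor, so its size depends on the floor. Mrps2 was at the other end (-0.25).

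Ribosome biogenesis genes, 42 of 51 listed, had a median of -0.04, with 5 separated higher (11.9%) and 10 lower (23.8%), near the shares of all tested probe sets, and that median was 0.04, 0.01 and 0.02 under median centring, quantile and cyclic loess normalization. Within it, Myc, the transcription factor that drives ribosome synthesis genes, had signals of 173.5 and 135.8 in obese and 93.2 and 86.5 in control tissue (0.77 ± 0.19, adjusted p = 0.467). Dkc1, which guides pseudouridine formation in ribosomal RNA, had signals of 85.9 and 58.5 in obese and 86.2 and 106.6 in control tissue (-0.44).

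In the mTOR and S6 kinase list, 24 of 27 genes were tested, with a median of -0.02, 3 separated higher (12.5%) and 6 lower (25%), near the shares of all tested probe sets. Under median centring that median was 0.06, with 16 of 24 higher, 6 separated higher and 4 lower. Of all tested probe sets 21.7% were then separated higher and 16.9% lower, with a median of 0.03. Larp1, which binds the pyrimidine tract, had signals of 444.1 and 279.2 in obese and 446.3 and 507.0 in control tissue (-0.43 ± 0.23, adjusted p = 0.681), nearly level between obese replicate 1 and control replicate 1. Ddit4, a stress-induced inhibitor of mTOR, had the largest difference of that list (0.93), but its signals of 451.7 and 260.4 in obese and 317.9 and 102.6 in control tissue overlapped. Cytosolic aminoacyl-tRNA synthetases, 22 of 23, had a median of 0.01, between Wars1 (0.42) and Qars1 (-0.20). Of these, 4 were separated higher (18.2%) and 2 lower (9.09%), beside 15.6% and 24.4% of all tested probe sets. Under median centring their median was 0.09, with 18 of 22 higher, beside a median of 0.03 for all tested probe sets. Poly(A) binding, release and ribosome-associated factors, 20 of 28, had a median of -0.03, between Srp9 (0.33) and Dhps (-0.57), and a median of 0.05 under median centring. Here 3 were separated higher (15%) and 2 lower (10%), beside the same 15.6% and 24.4%.

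The markers of immune cells that were tested were lower in obese tissue. All 8 macrophage markers tested were lower in obese tissue, 7 of them separated, with summed signals of 4734.6 and 4066.1 in obese and 6067.1 and 7695.7 in control tissue. All 9 lymphocyte markers tested were lower, 5 of them separated, and the listed markers summed to 982.8 and 807.7 in obese and 1911.8 and 1467.8 in control tissue. Cd8a is among the 5. Its obese signals of 18.2 and 13.7 were both under the floor, so it was kept through its control arrays only. Of all tested probe sets 57.5% were lower and 24.4% separated lower. Cd4, Ptprc and Cd37 were high on both control arrays. Cd3d, Cd3g, Cd8a and Lck stood highest on control replicate 1, and Cd8b was highest on obese replicate 1. Cd3g had signals of 74.3 and 70.0 in obese and 150.8 and 65.3 in control tissue. No marker of either list was at or under the floor on all arrays. Mesothelium markers summed to 1376.3 and 279.5 in obese and 596.0 and 762.8 in control tissue, and pancreas markers to 1544.2 and 152.9 in obese and 270.7 and 868.9 in control tissue. Obese replicate 1 had the highest and obese replicate 2 the lowest sum in both. Cpa1, at 148.1 and 622.5, and Cela1, at 80.2 and 207.8, made most of the pancreas sums in control tissue. Prss1, Ctrb1, Amy2a3 and Cel were high on obese replicate 1 only. On the other arrays Ctrb1, Amy2a3 and Cel were all under the floor, so their order there cannot be read. Prss1 had signals of 27.4 on obese replicate 2 and 26.5 and 16.4 in control tissue, the last also under the floor. Smooth muscle markers summed to 3638.6 and 1405.2 in obese and 1543.3 and 1617.9 in control tissue, with obese replicate 1 again standing apart. In bulk tissue, fewer cells of a type and less RNA per cell cannot be told apart, and the part of these markers in the ribosomal values was not tested.

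**Figure D4:**
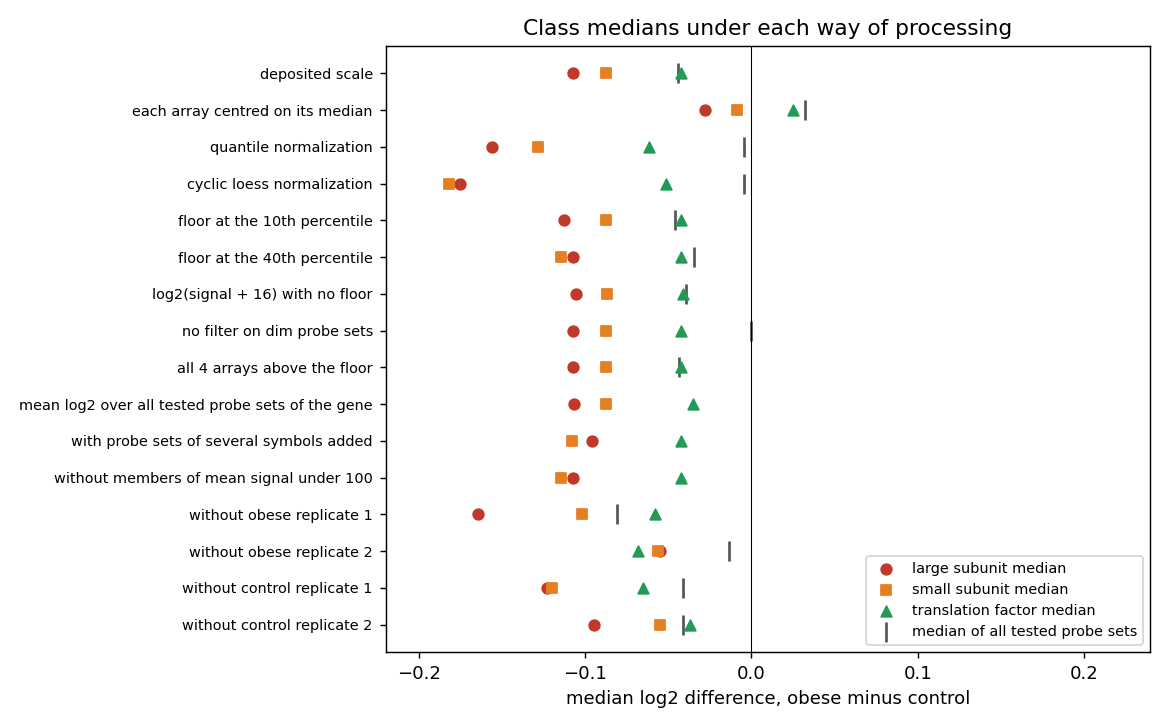
Median log2 difference, obese minus control (x axis), of the large subunit, the small subunit, the factors and all tested probe sets under each way of processing (rows). The large subunit median lies between -0.18 and -0.03 in all rows, to the left of the median of all tested probe sets wherever that median is drawn.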

How the data were processed

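The authors' deposited intensity table gives 1 linear value per probe set and array. From the values, it had been scaled to a trimmed mean between 150.026 and 150.03. The scanner software is not given in the sources used here. Of 15923 probe sets 57 controls were left out, and genes were named from probe sets with 1 symbol in the platform's annotation. Signals under 20.8, the 20th percentile over all arrays, were set to that floor before log2. A probe set with at least 2 arrays above the floor was tested with limma 3.58.1 in R 4.3.3 (lmFit, eBayes with trend, 5.83 degrees of freedom), as obese minus control. Its two-sided p-values were adjusted over 12929 probe sets by Benjamini-Hochberg. Errors are moderated standard errors. The code was tested on simulated data. Named genes were the 4 highest, 4 lowest and 2 brightest members of each class, preset genes, the members of a complex, and the ends of each list. The members and lists were chosen with earlier results of these data known. The precision is limited by 2 arrays per group. Same-numbered arrays deviated together with a correlation of 0.0482, so the numbers were not used as pairs.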

Additional observations from a re-analysis of the deposited data

How the results depend on the processing

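The number of arrays, 2 per group, limits every value here, and no detection call was used, so signals near the floor are bounds. On the deposited scale 0 probe sets passed, against 3 with log2(signal + 16), 6 with no filter on dim probe sets, and 1 each without the variance trend and with robust eBayes, and 0 members passed in any of them. Median centring of the arrays gave a factor median of 0.025, with 3 large subunit genes separated higher and 6 lower, and 2 small subunit genes higher and 4 lower. Under that scaling 21.7% of all probe sets were separated higher and 16.9% lower. Quantile normalization gave 0 higher and 8 lower of 29 for the large subunit, beside 20.6% lower of all probe sets, and 1 higher for the small subunit, and cyclic loess gave 0 higher for the large subunit, 1 higher for the small subunit and a small subunit median of -0.18. With probe sets of several symbols added, an alternative chosen after seeing the data, 16 small subunit probe sets were separated lower. They were among those of the 14 genes and 14 added probe sets, beside 24.4% separated lower of all tested probe sets. Leaving out 1 array in turn makes separation easier. Of all probe sets, 27% to 32.1% were then separated higher and 36.1% to 46% lower. Beside these shares, 1 to 6 of 29 large subunit genes were separated higher and 15 to 25 lower. Of 14 small subunit genes 1 to 3 were higher and 7 to 10 lower, and of 56 factors 14 to 17 were higher and 24 to 29 lower. Eif4enif1 was 0.021 without control replicate 2 and lay between -0.40 and 0.021 with any 1 array left out (-0.19 with all arrays), and Rpl7 was 0.13 as the mean over its probe sets (-0.15 for the brightest). The causes of these changes were not tested. With the label number as a replicate block, 0 probe sets passed and 1103 had an unadjusted p under 0.05, against 1073 without it, and the block changed no call. In 151 other comparisons of class values the result stayed within its spread or within 1.5 times its count. Among these the large minus small subunit difference, -0.02 on the deposited scale, was above 0 with the floor at the 40th percentile (0.025), without control replicate 2 (0.041), as a mean over probe sets (0.029), with probe sets of several symbols (0.014) and without members under a signal of 100 (0.025).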

Other observations

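Of the 13 member genes with several probe sets, 12 had more than 1 tested, and 5 of these differed in sign between their probe sets. For Rpl7 the brighter probe set differed by -0.15 and a dim one, at signals of 56.5 and 46.3 in obese and 29.3 and 50.4 in control tissue, by 0.41. Eif4g2 had signals of 1069.3 and 1122.0 in obese and 1055.4 and 1307.8 in control tissue on the brighter probe set (-0.10), and 473.0 and 512.6 in obese and 449.4 and 425.4 in control tissue on the other (0.17). For Eif4g1 the differences were 0.14 and -0.14, for Eif2b5 -0.17 and 0.02, and for Eif4e -0.03 and 0.10. Which transcripts these probe sets bind was not analysed here.

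Eif5a, the factor that carries the modified residue hypusine, had signals of 948.1 and 1154.9 in obese and 907.9 and 889.0 in control tissue (0.22 ± 0.15, adjusted p = 0.737 by limma), separated higher. Dhps, whose product makes the first step of that modification, had signals of 42.5 and 33.7 in obese and 55.3 and 56.7 in control tissue (-0.57 ± 0.21, adjusted p = 0.574), separated lower. Dohh, whose product makes the second step, had signals of 118.3 and 97.5 in obese and 79.3 and 106.3 in control tissue (0.23 ± 0.22), and its groups overlapped. None of these genes passed, and all were picked out here after their values were seen.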
